A study of Mus musculus with 6 samples.

Results

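The ErbB receptor family and its ligands were examined in podocytes at rest and after mechanical stretch. The genes were 3 receptors (Egfr, Erbb2 and Erbb3), 6 ligands (Hbegf, Areg, Ereg, Tgfa, Btc and Nrg1) and Errfi1, an inhibitor of the receptors. They were chosen by name, with earlier results of these data known. Every probe set whose only gene symbol in the platform's annotation was one of these was taken, and the probe set with the highest mean over the 6 arrays stood for its gene. This gave 21 of the 45037 probe sets tested and 9 of the 18193 genes, and Areg was not analysed here.

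ErbB receptors are tyrosine kinases of the cell surface that pair when a ligand of the EGF family binds, and then signal through the Ras-ERK and PI3K-Akt pathways. Hbegf, Areg, Ereg, Tgfa and Btc bind Egfr, while Nrg1 binds Erbb3, which itself has little kinase activity and signals mainly with Erbb2, a receptor that has no known soluble ligand. The ligands are made as membrane proteins and are released by ADAM proteases. In the glomerulus, HB-EGF made by podocytes and Egfr on podocytes are known from models of crescentic glomerulonephritis, and the tetraspanin Cd9, after which the series is named, binds the membrane form of HB-EGF.

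The cells were SVI, a conditionally immortalized mouse podocyte line, differentiated for 1 to 2 weeks at 38 °C in RPMI with 10% FBS. One group of 3 arrays came from cells left unstretched and the other 3 from cells stretched cyclically and biaxially for 3 days at 0.5 Hz and up to 5% linear strain. The 2 groups differed in no other labelled factor. A single line grown in culture lacks the capillary and the flow that podocytes have in the kidney. The design text speaks of 3 independent batches but does not define them, so p-values reflect array-to-array spread that may be technical in part.

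Each array gave 1 log2 expression value per probe set. The median over probe sets was 4.92 to 4.98 on the 6 arrays. The mean was 5.70 on each, and the SD was 2.03 to 2.05 on unstretched and 2.07 to 2.10 on stretched arrays. Of 12 podocyte markers 10 were measured, and 5 of them (Cd2ap, Synpo, Podxl, Plce1 and Wt1) had a value above that of the median gene, whereas the slit diaphragm gene Nphs1, Ptpro, Tcf21, Lmx1b and Foxc2 lay below it. All 6 endothelial markers also lay below it. Of the macrophage markers 1 (Csf1r) lay above it, of the mesangial markers 2 and of the tubule markers 2. The mean of 5 macrophage markers was 5.36 to 5.48 on unstretched and 5.00 to 5.11 on stretched arrays, and 2 of the 5 (Cd68 and Csf1r) fell. Ptprc, Adgre1 and Itgam had changes of -0.28, -0.21 and -0.03 that did not pass. The mean of 4 mesangial markers was 5.99 to 6.07 on unstretched and 6.11 to 6.23 on stretched arrays, and Pdgfrb rose by 0.41 (limma adjusted p = 0.0101). Gata3, Des and Itga8 had changes of 0.35, 0.02 and -0.16 that did not pass. The mean of 7 tubule markers was 5.31 to 5.39 on unstretched and 5.42 to 5.50 on stretched arrays, and Cubn rose by 0.49 (adjusted p = 0.0173). Aqp2 and Slc12a1 had changes of -0.17 and -0.01, and the other tubule markers had positive changes that did not pass. The podocyte marker Synpo fell by 0.45 (adjusted p = 0.00412), and the podocyte and endothelial means overlapped between the groups. Cd2ap and Wt1 had changes of 0.26 and 0.25, and the other podocyte markers had negative changes, none of which passed. The control sets of beta-actin, a measure of RNA quality, differed between their 3' and 5' ends by 1.57 ± 0.03 in unstretched and 1.30 ± 0.05 in stretched cells (SD, n = 3 each; two-sided exact permutation p = 0.1, the lowest possible with 3 against 3). The control sets of Gapdh differed by 0.25 ± 0.07 and 0.16 ± 0.10, with overlap between the groups (two-sided exact permutation p = 0.4). The part of these differences in the results that follow was not tested.

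No receptor, ligand or inhibitor of the set rose past the threshold when each gene was read by its brightest probe set, and 1 of 9, Tgfa, fell. That Tgfa set was the brightest through the unstretched arrays and was the dimmest Tgfa set in stretched cells. The threshold was a Benjamini-Hochberg adjusted p under 0.05 in limma, which 14.7% of all genes passed, 7.98% as higher and 6.76% as lower in stretched cells. The changes of the family were small. The log2 change, stretched minus unstretched, was positive in 6 genes and negative in 3, with a median of 0.21 against -0.02 over all genes. At an unadjusted p under 0.05, 3 genes were higher (Erbb3, Hbegf and Nrg1) and 1 lower, against 14.4% and 13.4% of all genes. The groups did not overlap in 3 genes with stretched above and in 1 with stretched below, against 16.0% and 16.6% of all genes. Higher calls made up 54.2% of all called genes as deposited, 42.7% with the arrays quantile normalized again, 44.6% with cyclic loess and 61.8% with the arrays centred on their medians. The changes also depended on scaling. Egfr, Hbegf, Nrg1 and Errfi1 had 0.14, 0.22, 0.24 and 0.21 as deposited. With quantile normalization again they had 0.06, 0.13, 0.16 and 0.11, and with centring 0.17, 0.25, 0.27 and 0.24. Erbb2 moved the same way, while Erbb3 had 0.43 in place of 0.40 with quantile normalization again. Ereg and Btc turned slightly positive.

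**Figure D1:**
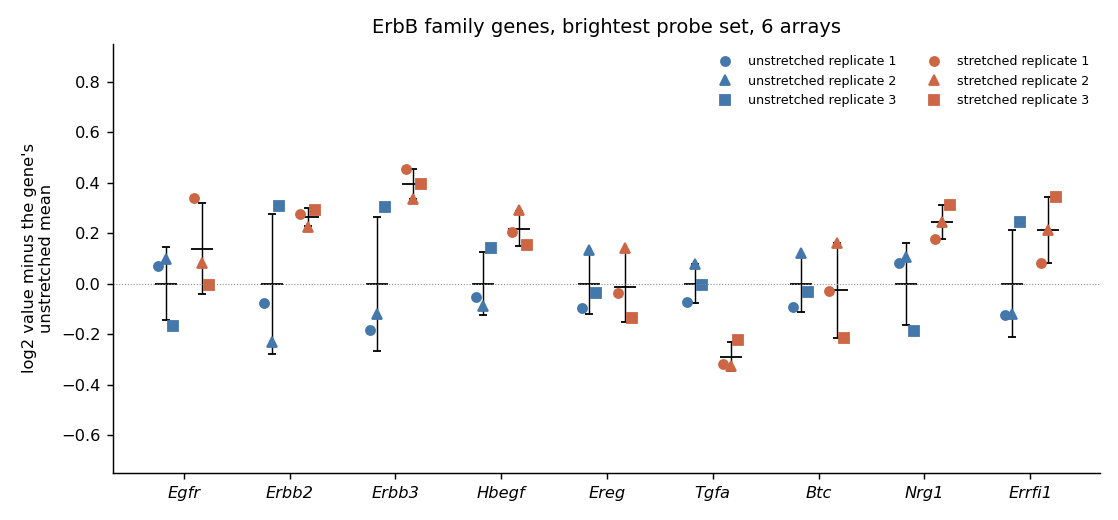
Each gene's log2 value on the 6 arrays (brightest probe set), minus the gene's mean over the 3 unstretched arrays; blue marks unstretched and orange stretched cells, marker shapes are replicate numbers, and bars show the group mean and SD. All 3 stretched values lie above the unstretched ones in Erbb3, Hbegf and Nrg1 and below them in Tgfa.

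When all 21 probe sets were tested on their own, 3 rose and 0 fell (limma adjusted p under 0.05), where 11.0% of all probe sets passed, 6.47% as higher and 4.51% as lower. At an unadjusted p under 0.05, 8 sets were higher and 1 lower, against 12.8% and 11.9% of all probe sets. The lower one was the Tgfa set that stood for the gene, which no longer passed among the larger number of tests. The sets that rose were 2 of the 7 of Egfr and 1 of the 3 of Tgfa, and none of them was the brightest of its gene. The groups did not overlap in 7 sets with stretched above and 1 with stretched below, against 14.2% and 15.3% of all probe sets.

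**Figure D2:**
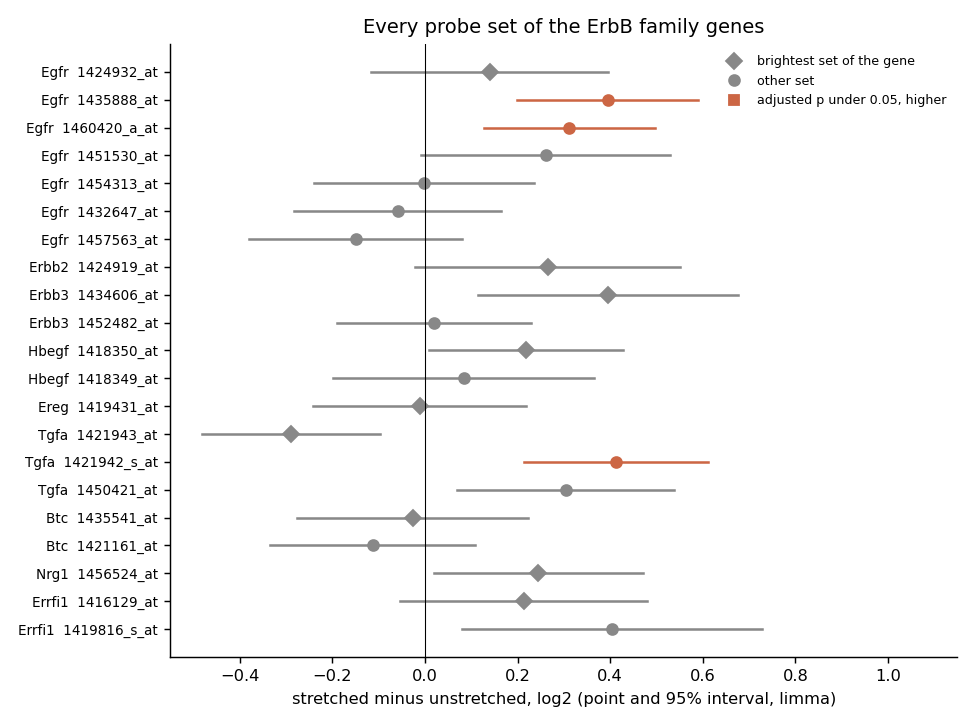
Log2 change, stretched minus unstretched, of all 21 probe sets with its 95% interval from limma; diamonds mark the brightest set of each gene and orange marks sets past the threshold. The 3 orange sets are 2 of Egfr and 1 of Tgfa, while the brightest Tgfa set lies on the other side of 0.

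Sequences are shown for Egfr and Tgfa, the genes with a probe set past the threshold, and for Errfi1, the inhibitor that Egfr signalling itself induces. Another Errfi1 start, described below, is not shown. Each sequence is the last 70 bases before the RefSeq start site (build GRCm38.p6, plus strand, 5′ to 3′, motif matches in capitals).
Egfr, chr11:16752133-16752202: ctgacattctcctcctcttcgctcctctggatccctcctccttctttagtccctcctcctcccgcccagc
Tgfa, chr6:86195152-86195221: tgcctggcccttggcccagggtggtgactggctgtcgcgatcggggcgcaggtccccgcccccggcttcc
Errfi1, chr4:150855000-150855069: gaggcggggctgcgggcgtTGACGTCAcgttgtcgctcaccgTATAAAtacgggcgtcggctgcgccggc
The Egfr and Tgfa stretches held none of the 5 motifs searched. The capitals in Errfi1 are a cyclic AMP response element, TGACGTCA, and a TATA box, TATAAA.

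The motifs were searched in windows from 250 bases before to 50 after each start, of which 6 of the 10 genes had 7 among 32851 in all. The AP-1 site TGANTCA was in 0 of the 7 windows and in 7.81% of all, and the CArG box, the site of SRF, in 0 of 7 and in 1.63% of all. TGACGTCA was in 2 of the 7, those of Areg and of this Errfi1 start, and in 1.79% of all windows. The TEAD site GGAATG was in 2 of the 7, those of Erbb2 and of another Errfi1 start, and in 14.7% of all. These were searched on both strands, and the palindrome TGACGTCA was counted once. TATAAA, searched on the gene's strand, was in 2 of 7 and in 8.32% of all. In the 250 bases before the start, G and C made up 60.8% in Egfr, 69.2% in Tgfa and 64.8% at this Errfi1 start but 38.0% at the other, with a median of 52.4% over all windows.

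Among the receptors, Egfr was read by 7 probe sets, and its 4 brightest had positive changes. The brightest, 1424932_at, read 8.50, 8.53 and 8.27 in unstretched and 8.77, 8.52 and 8.43 in stretched cells. The groups overlapped, with a log2 change of 0.14 (SE 0.11, 95% interval -0.11 to 0.39, limma adjusted p = 0.474 over all genes). The next, 1435888_at, read 7.55, 7.61 and 7.66 against 7.96, 7.95 and 8.10, so every stretched value lay above every unstretched one. It rose by 0.39 (SE 0.09, 95% interval 0.20 to 0.59, limma adjusted p = 0.0174 over all probe sets), a 1.31-fold higher value. The set 1460420_a_at, whose suffix marks probes shared by transcripts of 1 gene, read 6.79, 6.79 and 6.69 against 7.11, 7.02 and 7.07. It rose by 0.31 (SE 0.08, limma adjusted p = 0.0389), again without overlap.

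The fourth Egfr set, 1451530_at, was designed on the same sequence record as the brightest one. It read 6.80, 6.34 and 6.67 in unstretched and 6.95, 6.89 and 6.76 in stretched cells, where unstretched replicate 1 exceeded stretched replicate 3 (log2 change 0.26, SE 0.12, limma adjusted p = 0.218). The 3 dimmest sets had changes of -0.0021 (1454313_at), -0.06 (1432647_at) and -0.15 (1457563_at), and in all 3 the groups overlapped. Their mean values lay between the 10.6th and 50.7th percentile of probe sets, a range in which a value can be background. The change of the brightest Egfr set did not differ past the threshold from that of any other Egfr set, with limma adjusted p of 0.320 to 0.681 for the differences, where 7.82% of all 16752 pairs of a brightest and another set passed. The call of 1435888_at ended without unstretched replicate 1 (limma adjusted p = 0.0532) or stretched replicate 1 (0.0532) or 3 (0.0686). That of 1460420_a_at ended whichever array was left out (0.0670 to 0.142), with quantile normalization again (0.0907), cyclic loess (0.0690) and a trended, robust prior (0.0802).

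Erbb2, read by 1 probe set, had values of 6.68, 6.53 and 7.07 in unstretched and 7.03, 6.98 and 7.05 in stretched cells. Unstretched replicate 3 lay above all stretched arrays, and the other unstretched arrays below them. Stretch gave a log2 change of 0.27 (SE 0.13, limma adjusted p = 0.201, 95% interval -0.01 to 0.54), and without unstretched replicate 3 it was 0.42 (adjusted p = 0.0159).

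Erbb3, the neuregulin receptor, came closest to the threshold among the genes that did not pass. Its brighter set read 4.45, 4.52 and 4.94 in unstretched and 5.09, 4.97 and 5.03 in stretched cells, with no overlap and with unstretched replicate 3 again nearest to the stretched arrays. The difference was 0.40 on the log2 scale (SE 0.12, limma adjusted p = 0.0558, 95% interval 0.12 to 0.67). It passed without unstretched replicate 3 (0.55, adjusted p = 0.00388), with the arrays quantile normalized again (0.0473), centred on their medians (0.0454) or scaled by cyclic loess (0.0485), and with a trended, robust prior (0.0407). Erbb3 did not pass when any other array was left out (limma adjusted p of 0.0993 or more). Neither did it pass with averaged probe sets (0.21, adjusted p = 0.194) or with every probe set tested (0.0763). The values are low, at the 35.6th percentile of genes. The dimmer Erbb3 set had a change of 0.02 (SE 0.09, limma adjusted p = 0.928).

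Among the ligands of Egfr, Hbegf, which encodes the heparin-binding growth factor HB-EGF, was read by 2 probe sets from the same sequence record. The brighter read 8.02, 7.98 and 8.21 in unstretched and 8.28, 8.36 and 8.22 in stretched cells. The groups did not overlap, but unstretched replicate 3 and stretched replicate 3 were nearly level. Its log2 change of 0.22 (SE 0.09, 95% interval 0.01 to 0.42) did not pass (limma adjusted p = 0.152). The other set read 7.52, 7.46 and 7.39 against 7.74, 7.64 and 7.24, where stretched replicate 3 was the lowest of the 6 arrays and stretched replicates 1 and 2 the highest (log2 change 0.08, SE 0.13, limma adjusted p = 0.744). Cd9, the membrane partner of HB-EGF, read 9.96, 9.84 and 10.19 in unstretched and 10.70, 10.60 and 10.79 in stretched cells and rose by 0.70 (SE 0.10, limma adjusted p = 0.00154).

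Tgfa, which encodes TGF-alpha, was read by 3 probe sets designed on a single sequence record, and they moved in opposite directions. The brightest, 1421943_at, read 5.22, 5.37 and 5.28 in unstretched and 4.97, 4.97 and 5.07 in stretched cells. All stretched values lay below the unstretched ones, and the gene as read by this set fell by 0.29 (SE 0.08, 95% interval -0.48 to -0.10, limma adjusted p = 0.0428 over all genes). Among all probe sets its adjusted p was 0.0602. It was the brightest through the unstretched arrays, with a mean of 5.29 against 4.76 and 4.73 for the other sets. In stretched cells it was the dimmest, at 5.00 against 5.18 and 5.04, so its choice is tied to its fall.

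The second Tgfa set, 1421942_s_at, read 4.77, 4.84 and 4.67 in unstretched and 5.24, 5.19 and 5.10 in stretched cells. It rose by 0.41 (SE 0.09, limma adjusted p = 0.0157), with all stretched values above the unstretched ones, and its suffix marks probes that may read other transcripts. The third, 1450421_at, read 4.73, 4.70 and 4.77 against 4.83, 5.19 and 5.09, again without overlap (log2 change 0.30, SE 0.11, limma adjusted p = 0.101). The opposite directions of these sets were known when the genes were chosen and are given as a description.

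The mean of the 3 sets had a log2 change of 0.14 (SE 0.07, limma adjusted p = 0.216). The lower call of the brightest set ended whichever array was left out (adjusted p = 0.0512 to 0.137), with the arrays quantile normalized again (0.0566), centred (0.0647) or scaled by cyclic loess (0.0569) and with a trended, robust prior (0.0707). The call of the second set ended without stretched replicate 1 (0.0731) or 2 (0.0576). All 3 sets lay near the median probe set, from the 48.4th to the 54.1st percentile. The probe sequences were not used here. Over the 9010 genes with more than 1 probe set, 0.300% had sets called in opposite directions in the test of every probe set and 11.2% had a brightest set that was not called beside another that was. By that test Egfr and Tgfa are both of the latter kind.

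**Figure D3:**
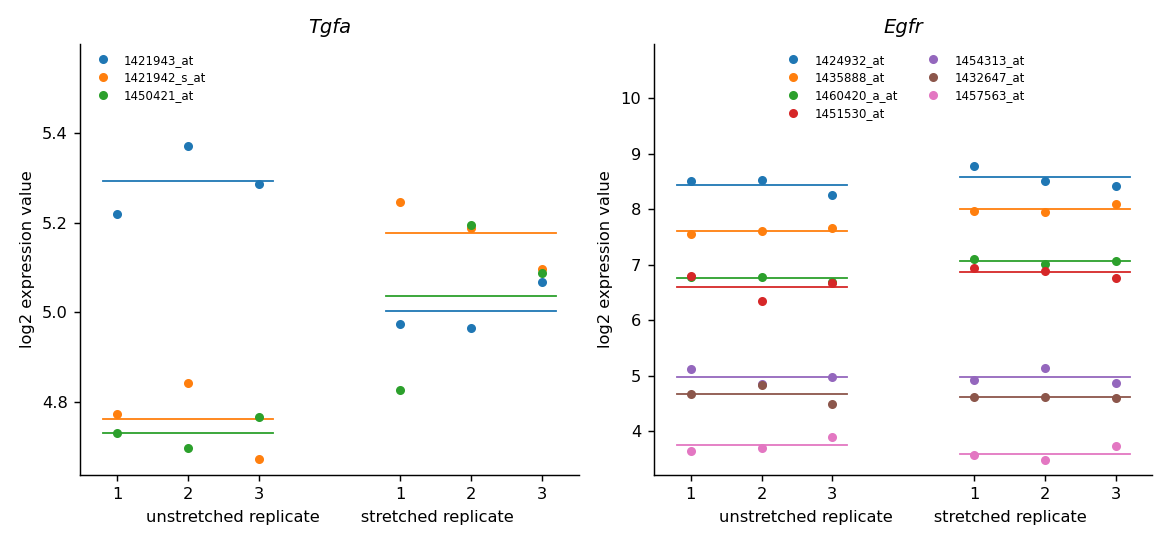
Log2 value of each Tgfa set (left, 3 sets) and each Egfr set (right, 7 sets) on every array; points are arrays, lines are group means and colours are probe sets. In Tgfa the brightest set falls from a mean of 5.29 to 5.00 while the other sets rise to 5.18 and 5.04; in Egfr the 2 sets past the threshold move from means of 7.61 and 6.76 to 8.00 and 7.07.

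Ereg, Btc and Areg, with Epgn, lie on the same mouse chromosome in the order Epgn, Ereg, Areg, Btc. Ereg, encoding epiregulin, read 3.90, 4.13 and 3.96 in unstretched and 3.96, 4.14 and 3.86 in stretched cells (log2 change -0.01, 95% interval -0.24 to 0.21, limma adjusted p = 0.958). Btc, encoding betacellulin, read 4.03, 4.24 and 4.09 against 4.09, 4.28 and 3.91 in its brighter set (log2 change -0.03, 95% interval -0.27 to 0.22, limma adjusted p = 0.907). The other Btc set had a change of -0.11 (limma adjusted p = 0.542). In all 3 sets the groups overlapped. Their mean values lay between the 2.80th and 23.8th percentile of probe sets, where background may hide a change.

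Nrg1, the neuregulin that binds Erbb3, was read by 1 probe set with values of 7.94, 7.96 and 7.67 in unstretched and 8.03, 8.10 and 8.17 in stretched cells. The groups did not overlap, and unstretched replicate 3 was the lowest array. A log2 change of 0.24 (SE 0.10, 95% interval 0.03 to 0.46) did not pass (limma adjusted p = 0.135).

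Errfi1, also called Mig6, encodes a protein that binds the kinase domain of activated ErbB receptors and inhibits it. Its brighter set read 10.46, 10.47 and 10.83 in unstretched and 10.67, 10.80 and 10.93 in stretched cells, where unstretched replicate 3 exceeded stretched replicates 1 and 2. This set had a log2 change of 0.21 (SE 0.12, limma adjusted p = 0.274, 95% interval -0.05 to 0.47). The other set read 9.30, 9.28 and 9.76 against 9.62, 9.92 and 10.00, with the same array overlapping (log2 change 0.40, SE 0.15, limma adjusted p = 0.113). Without unstretched replicate 3 that set passed with a change of 0.56 (adjusted p = 0.0224). Its name, 1419816_s_at, has the suffix of probes that may read other transcripts, and the annotation gave no sequence record for it.

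Unstretched replicate 3 was thus the highest of the unstretched arrays in Erbb2, Erbb3, the brighter set of Hbegf and both sets of Errfi1, and the lowest in Nrg1, the other Hbegf set and the brightest set of Egfr. Without it, 2 of the 9 genes rose past the threshold (Erbb2 and Erbb3) and 0 fell, and 5 of the 21 probe sets rose. The labels give no reason to leave it out.

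The ligands and receptors outside the set were all low. Of 6 (Egf, Epgn, Nrg2, Nrg3, Nrg4 and Erbb4), none lay above the 45.7th percentile of genes. With a median log2 change of -0.09, 0 rose and 1 fell (16.7% called, against 14.7% of all genes). Egf read 5.07, 5.32 and 4.60 in unstretched and 4.51, 4.34 and 4.33 in stretched cells and fell by 0.60 (SE 0.16, limma adjusted p = 0.0254). The stretched values lay below the unstretched ones, but the call ended without unstretched replicate 1 (0.0772) or 2 (0.0789) or stretched replicate 2 (0.0783) or 3 (0.0903). Erbb4, the other neuregulin receptor, had a change of -0.30 (SE 0.11, limma adjusted p = 0.103), also without overlap, and passed as lower without unstretched replicate 3 (-0.41, adjusted p = 0.0283). Epgn, Nrg2, Nrg3 and Nrg4 had changes of -0.06, 0.03, -0.08 and -0.11, and their groups overlapped.

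Among genes that release or handle the ligands, 4 of 15 rose and 0 fell in limma, with a median of 0.18. That is 26.7% called, against 14.7% of all genes. This list and the other lists were chosen with earlier results of these data known, so their called shares are a description. Most genes of this list and of the lists that follow lay above the median gene. Of the 9097 genes not below it, tested alone, 1558 rose and 1160 fell, a larger share than over all genes and near that of this list. Furin, a convertase that cuts the prodomains of ADAM proteases and growth factors, read 7.10, 6.90 and 6.81 in unstretched and 8.03, 7.90 and 7.73 in stretched cells and rose by 0.95 (SE 0.11, adjusted p = 3.03e-04). Frmd8, which stabilises the iRhom and Adam17 sheddase complex, rose by 0.55 (SE 0.10, adjusted p = 0.00407), and Cd9 was the third. Timp3, the inhibitor of Adam17 in the matrix, rose by 0.36 (SE 0.10, adjusted p = 0.0353), a call that ended without unstretched replicate 1 (0.0813) or 3 (0.0909) or stretched replicate 1 (0.145) or 2 (0.0826). Neither did it hold with cyclic loess (0.0771), with quantile normalization again (0.0775) or with every probe set tested (0.0507). Adam10 and Adam17, the main sheddases of these ligands, had changes of 0.25 and -0.07 (limma adjusted p = 0.109 and 0.705).

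In the relay from the receptors to Ras, ERK and PI3K, 8 of 25 genes rose and 2 fell, with a median of 0.24. That is 40% called, against 14.7% of all genes. The Ras exchange factor genes rose together. Sos2 read 6.63, 6.65 and 6.91 in unstretched and 7.67, 7.46 and 7.73 in stretched cells and rose by 0.89 (SE 0.11, limma adjusted p = 4.15e-04). Sos1 rose by 0.77 (SE 0.15, adjusted p = 0.00756), and the adaptor Crk rose by 0.55 (SE 0.10, adjusted p = 0.00569). The genes that fell were Pik3r1, the regulatory subunit of PI3K (fell by 0.42, SE 0.08, adjusted p = 0.00605), and the docking protein gene Gab1 (fell by 0.37, SE 0.09), the latter named after its value was seen. With all probe sets of a gene averaged, the list held 4 calls, and those of Sos1 (0.22, adjusted p = 0.0645) and Pik3r1 (-0.20, 0.195) ended.

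Among brakes and endocytic regulators of the receptors, 6 of 25 rose and 0 fell in limma, with a median of 0.12. That is 24% called, against 14.7% of all genes and a larger share of the genes not below the median gene, given above. Cbl, the ubiquitin ligase that marks activated Egfr for degradation, read 7.45, 7.28 and 7.56 in unstretched and 8.13, 8.11 and 8.19 in stretched cells and rose by 0.71 (SE 0.09, adjusted p = 6.73e-04). The receptor phosphatase Ptprk rose by 0.63 (SE 0.09) and the cytokine signalling inhibitor Socs3 by 0.49 (SE 0.09). Socs4, which promotes Egfr turnover, rose by 0.56 (SE 0.10), a call that ended with averaged probe sets (0.11, adjusted p = 0.331). The other calls were Sh3kbp1, a Cbl partner, and the clathrin adaptor subunit Ap2a1, both named after their values were seen.

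Genes known to be induced by ERK did not share a direction, since 5 of 19 rose and 2 fell. That is 36.8% called, against 14.7% of all genes, with a median of 0.18. Fosl1, an AP-1 factor, read 5.52, 5.51 and 5.62 in unstretched and 6.42, 6.48 and 6.98 in stretched cells and rose by 1.08 (SE 0.14, limma adjusted p = 5.54e-04). The receptor tyrosine kinase gene Epha2 rose by 0.64 (SE 0.10) and the Ras-ERK feedback inhibitor Spry2 by 0.62 (SE 0.12). Egr1, an immediate early factor, read 10.60, 10.56 and 10.29 against 8.78, 8.96 and 9.29 and fell by 1.47 (SE 0.13, adjusted p = 8.70e-05). The other gene that fell was the cyclin gene Ccnd1 (fell by 0.96, SE 0.20), and the ERK phosphatase gene Dusp6 rose by 1.03 (SE 0.20), both named after their values were seen. Its stretched values were 9.21, 8.30 and 8.31, so stretched replicate 1 stood above the others. Beside all of these lists, the macrophage marker mean was lower and the mesangial and tubule means were higher on stretched arrays. Synpo was lower, while some other podocyte, mesangial and tubule markers moved against Synpo or their list mean. The part of these marker differences in the counts was not tested.

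**Figure D4:**
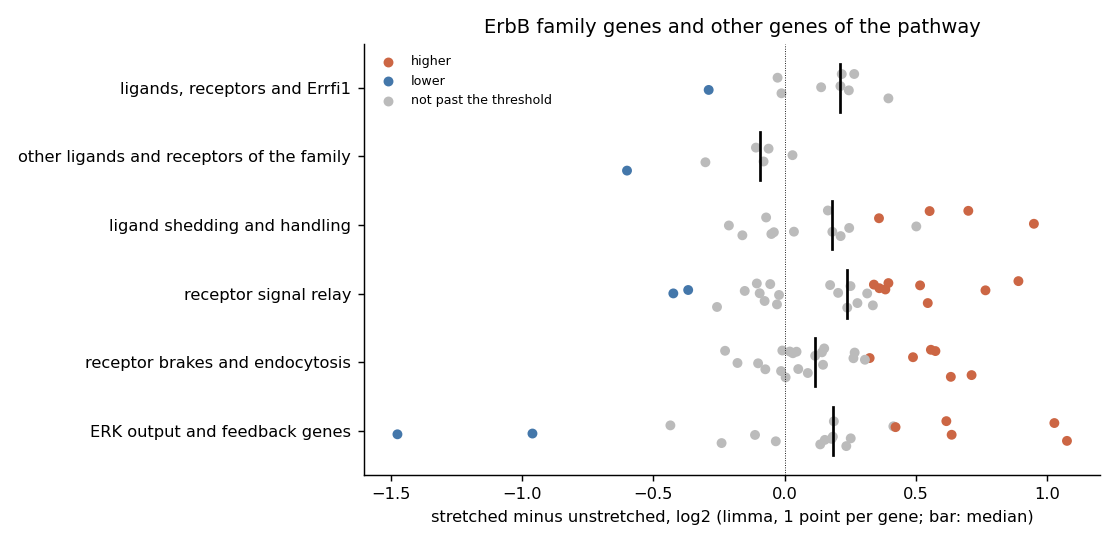
Log2 change, stretched minus unstretched, of each gene in the ErbB set and in the 5 other lists; each point is a gene, orange rose, blue fell, grey did not pass, and bars are list medians. The ErbB ligands, receptors and Errfi1 lie between -0.29 and 0.40, while the relay list runs from -0.42 to 0.89 and the ERK list from -1.47 to 1.08.

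The gene of the set with the largest moderated statistic was Tgfa, read by its brightest set. The genes whose log2 values followed it most closely over the 6 arrays were Ddx60 (Pearson r = 0.998), Lysmd2 (0.990) and Plcb4 (0.988), given as a description with no test, since the arrays fall into 2 groups. Of these, Plcb4 fell by 0.39 (SE 0.09, limma adjusted p = 0.0121), and Ddx60 and Lysmd2 had changes of -0.25 and -0.17 that did not pass.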

How the data were processed

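RNA of 6 samples was measured on Affymetrix mouse arrays. The authors deposited log2 values, 1 per probe set and array, made with RMA per the submitters' processing notes; its version is not given in the sources used here, nor is a genome build. RMA sets arrays to a common level and compresses changes of dim probe sets. Here the array means matched, but the spread of values was wider on the stretched arrays, and its part in the changes was not tested. Detection calls were not used here, so the number of arrays limits the precision and signal over background is unknown. Groups came from the sample titles. Of 45101 probe sets 64 controls were left out, and 34945 had 1 symbol in the platform annotation, of which 34741 matched the RefSeq table (GRCm38).

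The change with stretch was fitted with limma 3.58.1 in R 4.3.3, without covariates, once over 18193 genes (brightest probe set) and once over 45037 probe sets, adjusted by Benjamini-Hochberg. Differences between probe sets of a gene were fitted over all such pairs, a test added after the data were seen. The limma fit was tested on simulated data with independent noise. The scalings, blocks, left-out arrays and motif search were not tested in that way. The text names all genes of the set, all called genes of a list with 5 or fewer calls, otherwise the 4 with the largest moderated statistic, all other ligands and receptors, and the 3 genes most like the leading one. Genes and lists were chosen with earlier results of these data known. Alternatives were the replicate number as a block, each array left out, 3 other scalings, no dim genes, averaged or separately tested probe sets and another prior. Motifs were searched in RefSeq promoter windows.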

Additional observations from a re-analysis of the deposited data

How the results depend on the processing

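The count of genes of the set past the threshold was 1 (Tgfa, lower) and ranged from 0 to 2 when each array was left out in turn. It was 0 without dim genes (where 5 of the 9 genes were tested), 0 with probe sets averaged and 0 with every probe set tested. It was also 1 with the arrays quantile normalized again, centred on their medians or scaled by cyclic loess and with a trended, robust prior, but the gene was then Erbb3, higher, in place of Tgfa. Among the probe sets of these genes 3 passed, and 1 to 5 with an array left out. Over all genes 2681 were called, and 1661 to 2639 with an array left out (872 to 1450 higher, 767 to 1189 lower). In the other lists those counts ran from 0 to 2 of the outside ligands and receptors (0 without dim genes, where Egf is not tested), 3 to 5 of ligand handling (7 with a trended, robust prior), 6 to 9 of the relay (4 with averaged sets), 5 to 6 of the brakes and 6 to 9 of the ERK genes. The causes of these shifts were not tested, beside the fewer genes or arrays.

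With the replicate number as a fixed block 2 genes of the set passed, Tgfa as lower and Erbb3 as higher (0.40, limma adjusted p = 0.0391), and with a random block the same 2 (Erbb3 adjusted p = 0.0356). The fixed block gave 3102 calls over all genes and the random block 3283. Among the probe sets, the fixed block added Errfi1 1419816_s_at as higher (0.40, adjusted p = 0.0348), and the random block called Tgfa 1421943_at lower (0.0411) beside 1421942_s_at higher (0.00918), opposite calls within the gene. The deviations of same-numbered arrays from their group means correlated by 0.02, 0.15 and 0.28. Unstretched replicates 2 and 3 correlated best with the stretched array of their own number, but unstretched replicate 1 with stretched replicate 2 (0.11). These values do not settle whether the numbers mark pairs, and the main fit did not take them as pairs.

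The sign turned for values near 0. Ereg, with a change of -0.01 as deposited, had 0.0287 with quantile normalization again, 0.0166 with centring and 0.0332 with cyclic loess, and -0.0875 to 0.0547 with an array left out. The brighter Btc set had 0.0109, 0.0016 and 0.0162 under the same scalings and -0.121 to 0.0671. The Egfr set 1454313_at had 0.0317, 0.0262 and 0.0278 and -0.0814 to 0.0654. With an array left out the Egfr set 1432647_at ran from -0.145 to 0.0262, the dimmer Hbegf set from -0.0168 to 0.233, the dimmer Erbb3 set from -0.0556 to 0.0697, Epgn from -0.119 to 0.0133, Nrg2 from -0.0100 to 0.0816 and Nrg3 from -0.178 to 0.0621. With averaged probe sets Tgfa had 0.14. No depth is known for arrays, and low values can be background.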
